A study of Mus musculus with 6 samples.

Results

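The genes described here are 10 genes that mark tuft cells in the mouse intestine, measured by RNA-seq in adenomas of Apc1322T and ApcMin mice. They were chosen by name and not by their measured values, but with earlier results of these data known. They comprise the transcription factor genes Pou2f3 and Gfi1b, the taste signalling genes Trpm5 and Gnat3, and the kinase and cytoskeletal genes Dclk1 and Avil. The eicosanoid enzyme genes Ptgs1, Hpgds and Alox5 and the cytokine gene Il25 complete them. All 10 were found among the 34866 genes of the deposited count table, and 7 of them were among the 16536 genes with enough counts to be tested, whereas Il25, Gfi1b and Gnat3 did not. The 6 libraries came from excised intestinal adenomas of C57BL/6J mice aged between 100 and 120 days, 3 from the genotype Apc1322T/+ and 3 from ApcMin/+. Both genotypes thus carry 1 truncating germline allele of Apc, the gene of a negative regulator of Wnt signalling. The paper describes the Apc1322T truncation as longer, with binding sites for the Wnt effector beta-catenin that the ApcMin truncation lacks. There was no library of normal intestine, so that every value below compares adenomas with adenomas. The methods state that several RNA extractions from one mouse were typically pooled for a sample. The labels do not say that each library was from a different mouse, and the p-values therefore measure only the spread between these libraries.

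Tuft cells are rare epithelial cells with a brush of long microvilli that sense luminal metabolites and parasites through a pathway shared with taste cells. The POU factor Pou2f3 is required for their formation. Receptor activation opens the cation channel Trpm5, and the cells then release the cytokine IL-25, which acts on innate lymphoid cells whose IL-13 in turn favours the formation of more tuft cells, as well as cysteinyl leukotrienes and prostaglandins. Several of the genes are also used by other cells of an adenoma: Hpgds, Ptgs1 and Alox5 by mast cells and other leukocytes, Gfi1b by megakaryocytes and erythroid cells, Dclk1 by neurons and some stromal cells, and Pou2f3 by stratified epithelia.

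The libraries held between 23132461 and 33518324 estimated counts. CPM below are estimated counts scaled to a common library size with the TMM method, and log2 CPM values include a prior count of 2. A count of 3, below which no signal was read, amounted to 0.0895 CPM in the deepest and 0.130 CPM in the shallowest library before TMM scaling. This floor and the intervals given below cover counting error only. Differences between the genotypes were tested across the 16536 genes by the quasi-likelihood method of edgeR, and a gene was called at a Benjamini-Hochberg adjusted p under 0.01. A positive log2 fold change denotes a higher level in ApcMin adenomas. Of all genes tested, 0 passed that threshold (0%), while 2495 had an unadjusted p under 0.05. No pair of libraries was a copy, as their counts differed by a chi-square statistic of at least 24.3 per gene.

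None of the 7 tested tuft cell genes passed the threshold, but all 7 had a positive log2 fold change. Their median was 0.62, against 0.017 over all genes tested, of which 8661 had a positive value. At an unadjusted p under 0.05, 2 of the 7 were higher in ApcMin adenomas and 0 were lower, and 7.49% and 7.6% of all genes tested were past that limit in the respective direction. These were Ptgs1 and Hpgds, which were also the only 2 of the 7 tested genes whose ApcMin libraries all lay above the Apc1322T libraries, an order found for 11% of all genes. The reverse order was found for 9.96% of all genes and for none of the 7. By DESeq2's Wald test, in which 194 of 17346 genes with an adjusted p were called (1.12%), Ptgs1 passed the threshold and the other 6 did not. Adenomas are mixtures of cells. In bulk libraries a difference in the number of tuft cells cannot be told apart from one in RNA per tuft cell. Nor can it be told apart from a difference in other cells that use these genes.

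**Figure D1:**
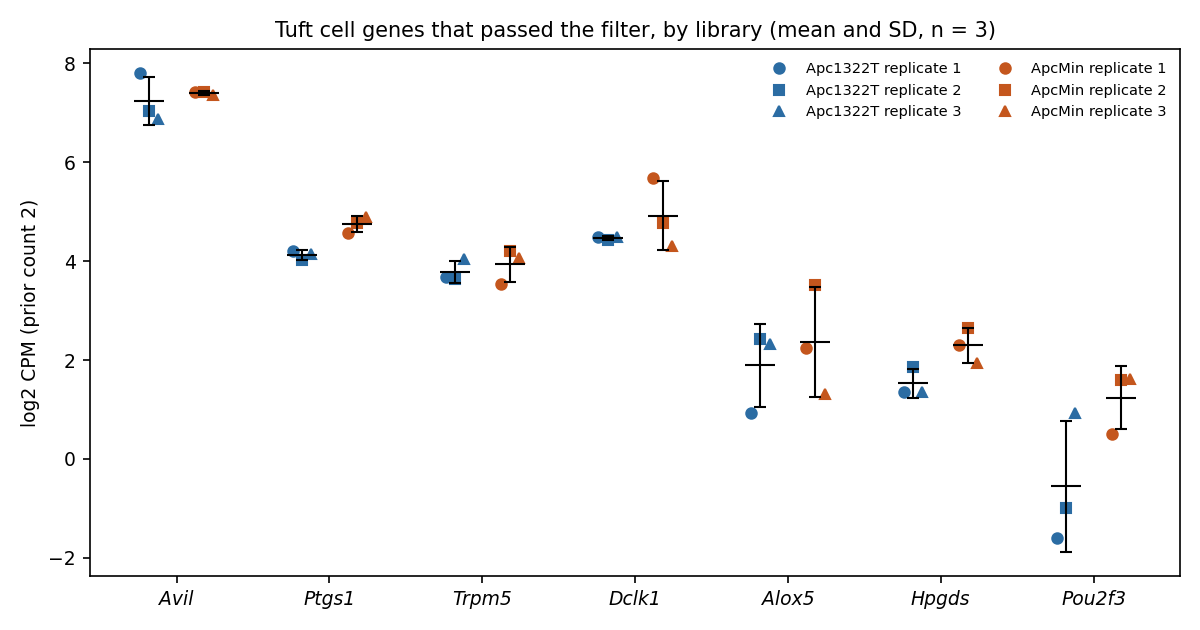
Log2 CPM (vertical axis, prior count 2) of the 7 tested tuft cell genes, with each library as a point, Apc1322T in blue and ApcMin in orange, and the mean and SD of 3 libraries in black. The ApcMin points of Ptgs1 and Hpgds all lie above the Apc1322T points, and those of the other 5 genes overlap.

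The levels of the 10 genes spanned a wide range when set against the length of their exons. As CPM per kilobase of union exon (RPKM), the mean over the 6 libraries was 48.1 for Avil, 5.71 for Ptgs1, 2.30 for Trpm5, 1.79 for Dclk1, 1.24 for Alox5, 0.606 for Hpgds and 0.528 for Pou2f3. The untested genes followed with 0.166 for Gnat3, 0.108 for Gfi1b and 0.0647 for Il25. Union exons pool all annotated transcripts of a gene, 15 for Dclk1, so that the order depends on the length used. In CPM, without length, Dclk1 was above Trpm5 in every library. Only Avil and Ptgs1, and Ptgs1 and Trpm5, were neighbours in this order whose ranges over the libraries did not overlap. From Trpm5 downwards each gene's range overlapped that of the next, although Pou2f3 was above Gnat3 in 6 of 6 libraries. Avil was at 91.1 times the level per length of Pou2f3. It supplied between 63.8% and 79.3% of the counts of the 10 genes in a library, so that their summed level mostly follows Avil. The 9 other genes summed to 58.3, 59.4 and 65.9 CPM in Apc1322T replicates 1, 2 and 3 and to 97.9, 95.1 and 75.9 CPM in ApcMin replicates 1, 2 and 3. These sums did not overlap between genotypes. Those of all 10 genes did, at 184 to 282 CPM in Apc1322T and 241 to 270 CPM in ApcMin. Dclk1, Ptgs1 and Trpm5 had the highest CPM among the genes other than Avil in every library. Leaving out Avil was decided after its values were seen, and no test is attached to the sums.

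**Figure D2:**
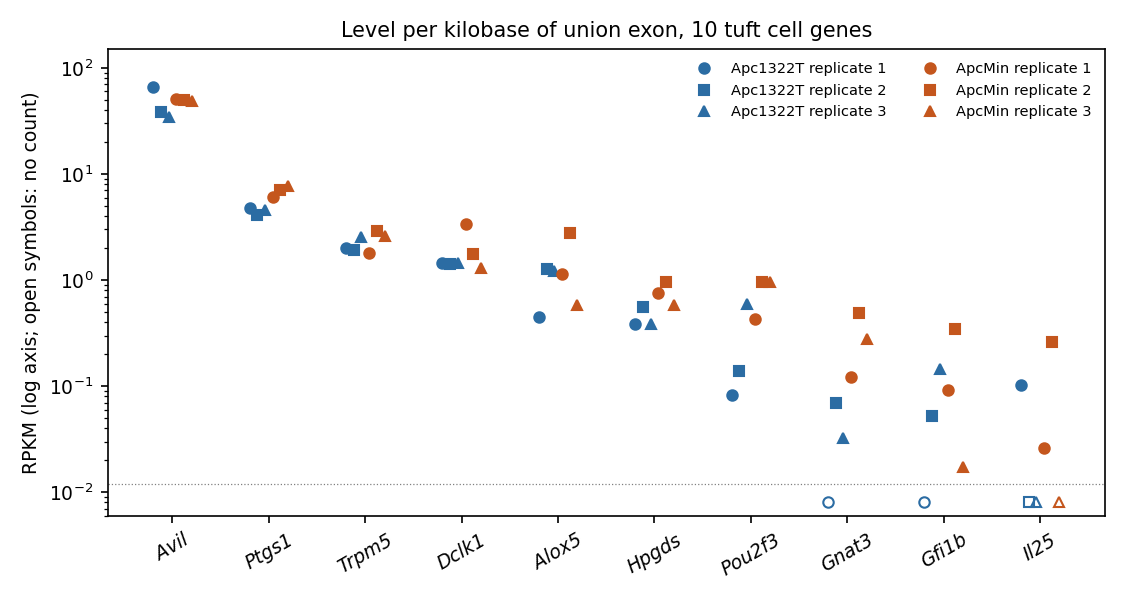
RPKM, that is CPM per kilobase of union exon (vertical log axis), of the 10 tuft cell genes in each library, in order of their mean, with Apc1322T in blue and ApcMin in orange and open symbols under the dotted line for libraries without a count. Avil lies between 34.7 and 65.7, above every other gene, and Gnat3, Gfi1b and Il25 have libraries without a count.

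Among the regulators, Pou2f3 (chr9:43123939-43210369 on GRCm38, minus strand) encodes the POU domain factor on which the tuft lineage depends. It was measured at 0.257, 0.428 and 1.84 CPM in Apc1322T replicates 1 to 3 and at 1.34, 2.95 and 2.97 CPM in ApcMin replicates 1 to 3. Apc1322T replicates 1 and 2 were lowest, but Apc1322T replicate 3 exceeded ApcMin replicate 1, so that the genotypes overlapped. The mean log2 CPM was -0.55 ± 1.32 (SD, n = 3) in Apc1322T and 1.23 ± 0.64 (SD, n = 3) in ApcMin. Its log2 fold change of 1.52 (SE 0.75), the highest of the 7 tested genes, had an adjusted p of 0.376 by edgeR's quasi-likelihood test. The estimate depended on single libraries, as it was 2.82 without Apc1322T replicate 3 and 1.08 without Apc1322T replicate 1.

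Gfi1b (chr2:28609450-28621982, minus strand), a zinc finger repressor gene of tuft cells and of the megakaryocytic and erythroid lineages, was counted 0, 2 and 6 times in the Apc1322T libraries and 6, 16 and 1 times in the ApcMin libraries. It thus rested on few reads, and the genotypes overlapped. Its summed rate was 2.45 times higher in ApcMin, with an exact 95% counting interval between 1.06 and 6.34 that ignores the spread between libraries. The B cell and tuft cell factor Spib was measured at 1.69, 3.37 and 4.38 CPM in Apc1322T and 4.58, 8.26 and 4.01 CPM in ApcMin (log2 fold change 0.84, adjusted p = 0.391 by edgeR's quasi-likelihood test). Its libraries overlapped, because ApcMin replicate 3 was below Apc1322T replicate 3. At the other end of the regulator list was Atoh1, the factor of the secretory lineages, with a log2 fold change of -0.25.

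In stratified epithelia Pou2f3 is expressed together with keratins of that tissue, and some of these differed between the same libraries. Krt14 was at 3.15, 3.56 and 4.73 CPM in Apc1322T and at 21.2, 21.8 and 22.2 CPM in ApcMin, with an adjusted p of 0.0485 by edgeR's quasi-likelihood test, the smallest of all genes. Krt6a had a log2 fold change of 3.41. The 6 tested squamous genes did not share this direction, as Dsg3 had -0.81, with all Apc1322T libraries above the ApcMin libraries, and Sprr1a -0.48. The defining squamous genes Krt5 and Trp63 were near the floor, with at most 14 and 13 counts in a library. Both Krt14 and Pou2f3 had higher mean levels in ApcMin adenomas. Within the ApcMin libraries Krt14 was level whereas Pou2f3, with 48, 75 and 94 counts, varied. The part of squamous cells in the Pou2f3 values was not tested. Of 7 gastric genes, 4 had a positive and 3 a negative value, from 5.40 for the gastric lipase gene Lipf, with 4, 10 and 4 counts in Apc1322T and 312, 436 and 239 in ApcMin, to -1.17 for Tff1, whose Apc1322T libraries all lay above the ApcMin libraries. The squamous and gastric genes were examined after their values had been seen.

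The taste signalling genes gave a divided result. Trpm5 (chr7:143069153-143094642, minus strand), the calcium-activated cation channel at the end of the pathway, was measured at 12.8, 12.4 and 16.4 CPM in Apc1322T and at 11.5, 18.4 and 16.8 CPM in ApcMin. Its lowest library was ApcMin replicate 1 and its highest ApcMin replicate 2, so that the Apc1322T values lay within the ApcMin range. The log2 fold change was 0.17 (SE 0.21, n = 3 against 3) with an adjusted p of 0.709 by edgeR's quasi-likelihood test. It was 0.030 without ApcMin replicate 2 and 0.34 without ApcMin replicate 1. Exons of Tssc4 overlap those of Trpm5 by 220 bases on the opposite strand. The library kit preserves strand, but whether the reads were assigned by strand is not given in the sources used here.

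Gnat3 (chr5:17962549-18019834, plus strand) encodes gustducin, the G protein alpha subunit of taste cells. It was counted 0, 2 and 1 times in Apc1322T and 6, 17 and 12 times in ApcMin, so that the genotypes did not overlap. All 3 Apc1322T libraries were at or under the floor of 3 counts. The sums of 35 and 3 counts gave a rate ratio of 9.96 with an exact 95% counting interval between 3.14 and 50.6. In a model without the filter on low counts its unadjusted p was 0.0147 and its adjusted p 0.366 by edgeR's quasi-likelihood test. DESeq2 gave no adjusted p for it, nor for Gfi1b or Il25.

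Apart from Itpr2, the other listed taste pathway genes overlapped between genotypes in CPM. Gnb3 and Gng13, which encode the beta and gamma subunits that pair with gustducin, were counted 2, 2 and 0 and 3, 3 and 3 times in Apc1322T, and 2, 1 and 33 and 5, 7 and 26 times in ApcMin. The counts of Gng13 were higher in each ApcMin library, but after scaling ApcMin replicate 1 (0.140 CPM) fell below Apc1322T replicate 2 (0.143 CPM). Both genes were highest in ApcMin replicate 3, where Gnat3 was counted 12 times. Plcb2, the phospholipase of the cascade, was at 1.21, 2.42 and 2.28 CPM in Apc1322T and at 2.90, 4.09 and 1.07 CPM in ApcMin (log2 fold change 0.45, adjusted p = 0.691 by edgeR's quasi-likelihood test). Sucnr1, the succinate receptor of tuft cells, had a log2 fold change of 1.11 with an SE of 1.11, and 0 counts in Apc1322T replicate 1. The lowest value of the list was -0.68 for Itpr2, a calcium release channel of many cell types, whose Apc1322T libraries all lay above the ApcMin libraries. Of 12 listed taste pathway genes beside the members, 7 were tested, 4 of them with positive and 3 with negative values.

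Avil (chr10:127000709-127020994, plus strand) encodes advillin, an actin-bundling protein of the tuft cell apex. It was measured at 223, 131 and 118 CPM in Apc1322T replicates 1 to 3 and at 173, 171 and 165 CPM in ApcMin replicates 1 to 3. The ApcMin libraries were close together (SD 0.03 on the log2 scale, n = 3) and lay between Apc1322T replicate 1 and the other two. The log2 fold change was 0.11 (SE 0.24), with an adjusted p of 0.848 by edgeR's quasi-likelihood test. Its direction turned when a library was left out, to -0.012 without Apc1322T replicate 2 and -0.068 without Apc1322T replicate 3. Exons of Tsfm overlap those of Avil by 165 bases on the opposite strand. The part of cells other than tuft cells in the Avil value was not tested.

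Dclk1 (chr3:55242364-55539068, plus strand) encodes a microtubule-associated kinase widely used as a tuft cell marker. It was at 22.4, 21.5 and 22.4 CPM in Apc1322T and at 51.5, 27.1 and 19.9 CPM in ApcMin. The Apc1322T libraries were nearly level, whereas ApcMin replicate 1 was high and ApcMin replicate 3 was below all Apc1322T libraries. The log2 fold change was 0.57 (SE 0.34), with an adjusted p of 0.437 by edgeR's quasi-likelihood test, and without ApcMin replicate 1 it was 0.087. In that library the summed level of the fibroblast genes was highest too, at 3304 CPM against 604 to 1523 CPM in the other 5. Among these genes Pdgfra was an exception, with its highest level in ApcMin replicate 3. Ptgs2, the inducible cyclooxygenase gene, was also highest in ApcMin replicate 1, at 139 CPM against 27.6 to 49.0 CPM. The part of stromal cells in the Dclk1 value was not tested. Short exon overlaps of 27 and 87 bases exist with Gm21954 and Gm42609 on the opposite strand.

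The eicosanoid enzyme genes included both tested members whose genotypes did not overlap. Ptgs1 (chr2:36230426-36252272, plus strand) encodes the constitutive cyclooxygenase that makes prostaglandin H2 from arachidonic acid. It was at 18.5, 16.1 and 17.6 CPM in Apc1322T and at 23.7, 27.4 and 29.7 CPM in ApcMin, so that every ApcMin library was above every Apc1322T library. The mean log2 CPM was 4.12 ± 0.10 (SD, n = 3) in Apc1322T and 4.75 ± 0.17 (SD, n = 3) in ApcMin. Its log2 fold change of 0.63 (SE 0.12), a 1.55-fold difference, had an unadjusted p of 0.0013 and an adjusted p of 0.257 by edgeR's quasi-likelihood test. DESeq2's Wald test gave 0.61 with an adjusted p of 0.00986, past the threshold of 0.01. With 3 libraries against 3, the exact two-sided permutation test of its log2 CPM gave 0.1, the smallest p this design allows. The log2 fold change was between 0.55 and 0.71 when any library was left out, and the unadjusted p stayed under 0.05 in all 6 of these fits. An exon overlap of 148 bases with Gm43621 lies on the opposite strand.

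Hpgds (chr6:65117293-65144908, minus strand) encodes the hematopoietic synthase that turns prostaglandin H2 into prostaglandin D2. It was at 2.49, 3.56 and 2.5 CPM in Apc1322T and at 4.83, 6.21 and 3.76 CPM in ApcMin. The groups did not overlap, but ApcMin replicate 3 and Apc1322T replicate 2 were close. The log2 fold change was 0.79 (SE 0.28), a 1.73-fold difference, with an unadjusted p of 0.0258 and an adjusted p of 0.302 by edgeR's quasi-likelihood test. The exact permutation p was 0.1, and DESeq2's adjusted p was 0.175. Its unadjusted p no longer stayed under 0.05 without ApcMin replicate 1, without ApcMin replicate 2, without Apc1322T replicate 1 or without Apc1322T replicate 3.

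Alox5 (chr6:116410077-116461178, minus strand) encodes the 5-lipoxygenase at the start of leukotriene synthesis. It was at 1.83, 5.27 and 4.95 CPM in Apc1322T and at 4.69, 11.4 and 2.40 CPM in ApcMin. ApcMin replicate 2 was highest and Apc1322T replicate 1 lowest, and the genotypes overlapped widely. The log2 fold change was 0.62 (SE 0.65), with an adjusted p of 0.652 by edgeR's quasi-likelihood test. Without ApcMin replicate 2 it turned to -0.17.

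Partner genes of these enzymes overlapped between genotypes apart from Tbxas1 and Lta4h. Alox5ap, the gene of the protein that presents arachidonic acid to the lipoxygenase, was at 4.26, 7.41 and 7.57 CPM in Apc1322T and at 14.4, 12.9 and 4.65 CPM in ApcMin (log2 fold change 0.73, adjusted p = 0.456 by edgeR's quasi-likelihood test). Like Alox5 it was low in Apc1322T replicate 1 and ApcMin replicate 3. Ltc4s, which encodes the leukotriene C4 synthase, had a log2 fold change of 0.17 (SE 0.30). Of the 7 tested among 8 further eicosanoid genes, 6 had a positive value, and the extremes were 1.06 for the thromboxane synthase gene Tbxas1, with non-overlapping libraries, and -0.41 for Lta4h. Ptgs2 had a value of 0.76 (SE 0.61), which rested on ApcMin replicate 1.

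The promoter of Hpgds was the 1 of 9 RefSeq promoters of the members that held the octamer ATGCAAAT, the sequence class bound by POU factors such as Pou2f3, and its upstream stretch is shown for that reason. The window reached from 250 bases before to 50 bases after the RefSeq start, and 8 of the 10 members had an entry, Dclk1 with more than one and Pou2f3 and Il25 without. On either strand, 1.74% of the 32851 promoters in the RefSeq table of GRCm38.p6 held this octamer. AAATCAC, the core bound by Gfi1 family repressors, was in 0 of the 9 and in 3.2% of all. The stretch below is chr6:65144897-65144980 on the minus strand, from base -250 to base -167 of the RefSeq start, with the octamer in capitals. In GENCODE M21 the outermost end of the gene lies at 65144908, so that the octamer begins at base 5 within that gene model. A match describes letters in a window and not a bound site.
Hpgds: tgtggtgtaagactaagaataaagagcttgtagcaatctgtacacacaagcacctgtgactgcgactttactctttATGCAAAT

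Il25 (chr14:54932695-54935837, plus strand), the cytokine by which tuft cells alert innate lymphoid cells, was hardly detectable at this depth. It was counted 3, 0 and 0 times in Apc1322T and 1, 7 and 0 times in ApcMin, so that 1 library exceeded the floor of 3 counts. The rate ratio of 2.28 had an exact 95% counting interval between 0.546 and 13.3, which includes equal rates. Il13, the lymphoid cytokine that responds to IL-25, was counted 1, 4 and 3 times in Apc1322T and 4, 19 and 0 times in ApcMin. Both cytokine genes were thus highest in ApcMin replicate 2.

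The receptors of this circuit were measured more firmly. Il17rb, which encodes the IL-25 receptor subunit, had a log2 fold change of 0.35 (SE 0.36) and Il4ra, the gene of the chain shared by the IL-4 and IL-13 receptors, had -0.02 (SE 0.16). Il13ra1, the other chain of the IL-13 receptor, was at 140, 212 and 221 CPM in Apc1322T and at 134, 141 and 120 CPM in ApcMin, with a log2 fold change of -0.53, an unadjusted p of 0.0222 and an adjusted p of 0.288 by edgeR's quasi-likelihood test. Its Apc1322T replicate 1 fell within the ApcMin range. Of the 11 tested genes of a list of 16 for this circuit, 3 had a positive and 8 a negative value, from -0.65 for Gata3 to 0.62 for the IL-33 receptor gene Il1rl1, with a median of -0.07. No gene of the circuit list passed the threshold.

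A wider list of 60 further tuft cell genes, written from general knowledge, held genes of both directions. Of the 50 tested, 36 had a positive and 14 a negative value, with a median of 0.28. At an unadjusted p under 0.05, 10 were higher in ApcMin and 4 lower, beside 7.49% and 7.6% of all genes. All ApcMin libraries were above in 9 and below in 5, beside 11% and 9.96% of all genes. Relative to the epithelial genes described below, a scale on which the median of all genes was 0.45, 47 of the 50 were positive with a median of 0.73, and 24 were higher and 0 lower at an unadjusted p under 0.05. On that scale 7017 of the 16536 genes tested had an unadjusted p under 0.05 in either direction. All 7 epithelial genes were lower in ApcMin, so that this scale moves the values of other genes up. The share of all genes in each direction on it is not given here. The counts of the 50 on that scale are therefore not read as a result about tuft genes. On the main TMM scale none of the 50 passed edgeR's threshold of 0.01. DESeq2's Wald test called 1 of them, the orphan receptor gene Gprc5c (adjusted p = 0.0067). Gprc5c was at 4.0, 4.7 and 3.72 CPM in Apc1322T and at 6.28, 12.1 and 11.3 CPM in ApcMin, and its log2 fold change of 1.26 was the highest of the list. It is also expressed outside the tuft lineage, as are other genes of the list, among them Spib, Siglecf, Itpr2 and Espn. The part of other cells in the counts of this list was not tested.

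The sublists differed in their medians, which are given as a description. The 24 tested signalling and surface genes had a median of 0.49, with 18 positive values, and ranged from -0.47 for Bcl2l14 to the value of Gprc5c. Among them Bmx, a Tec family kinase gene, had 1.24 and Pik3r5, a PI3 kinase regulatory subunit gene, 1.05, both with non-overlapping libraries. The medians were 0.35 for the eicosanoid genes, 0.23 for taste signalling, 0.18 for the 5 tested regulators and 0.05 for the 7 structural genes. The structural genes ranged from -0.64 for Espn, an actin bundler of microvilli in many cells, to 0.93 for Nebl. Chat, the acetylcholine synthesis gene of tuft cells and neurons, stayed untested with between 2 and 15 counts per library.

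**Figure D3:**
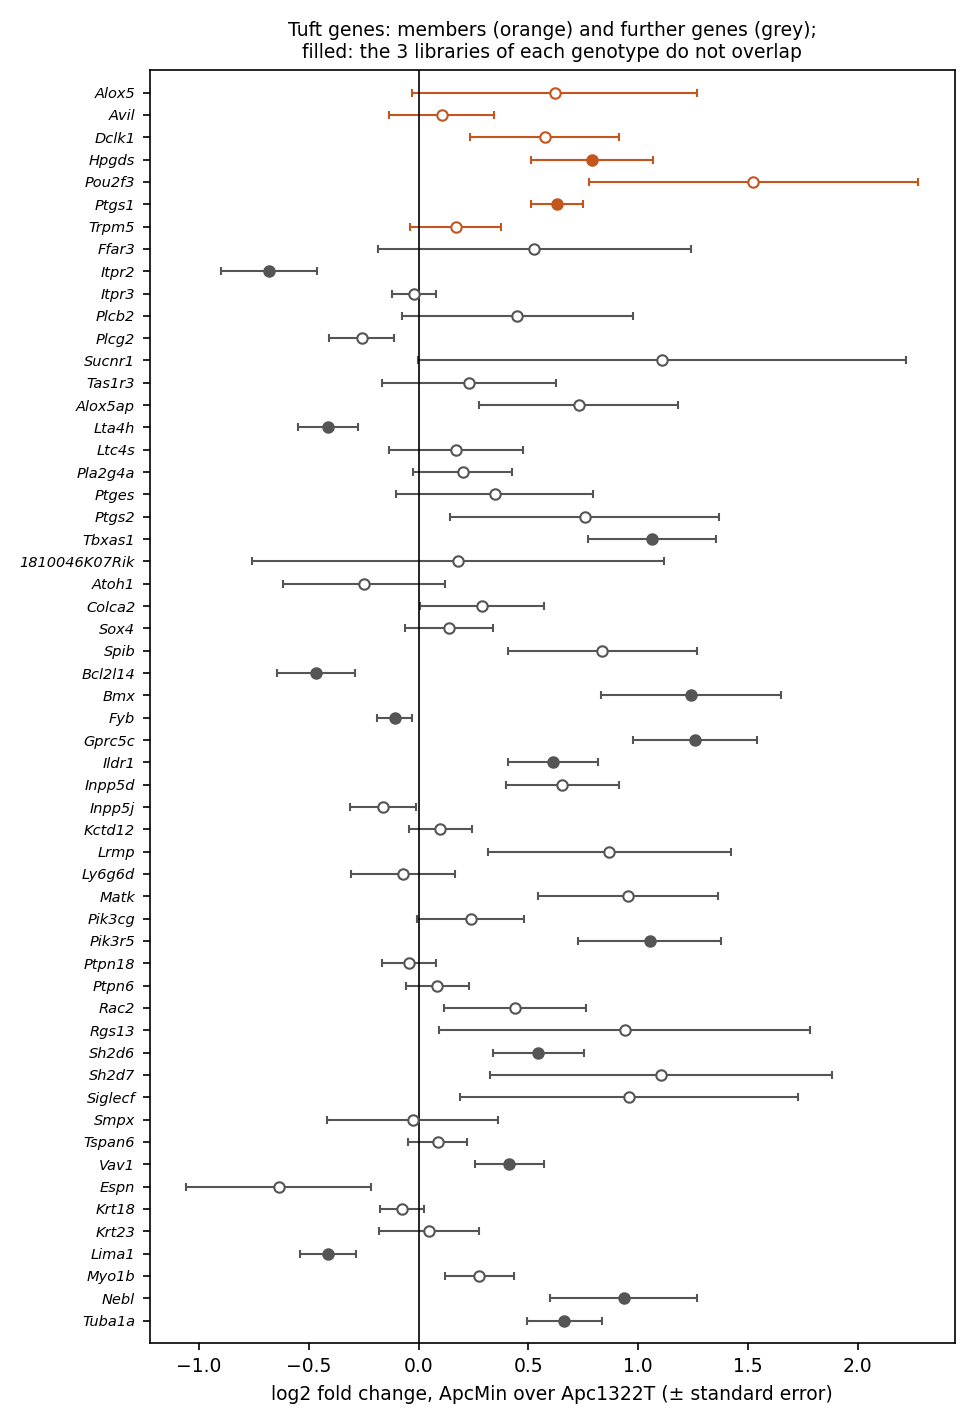
Log2 fold change of ApcMin over Apc1322T (horizontal axis, ± standard error) for the 7 tested tuft cell genes in orange and 49 of the 50 further tuft genes in grey, with filled circles where the 3 libraries of each genotype do not overlap. All 7 orange points lie right of 0, with Ptgs1 and Hpgds filled, and the grey points lie on both sides, 35 of 49 to the right.

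A pattern between libraries cut across the genotypes. Of the 50 further genes, 21 had their highest value in ApcMin replicate 2 (42%), a position that this library held for 12.6% of all genes. The lowest value fell on ApcMin replicate 3 for 14 genes and on Apc1322T replicate 1 for 13 genes, that is 28% and 26%, against 19.4% and 15.3% of all genes. Siglecf, a sialic acid receptor gene of mature tuft cells and eosinophils, followed this order with 0.990, 2.42 and 3.33 CPM in Apc1322T and 4.55, 7.59 and 0.948 CPM in ApcMin. Kctd12 was more level, between 38.7 and 54.5 CPM in the 6 libraries. Among the members, ApcMin replicate 2 was highest for Trpm5, Hpgds and Alox5 and Apc1322T replicate 1 was lowest for Pou2f3, Hpgds and Alox5. Other members departed from this order. ApcMin replicate 3 was highest for Pou2f3 and Ptgs1 and lowest only for Dclk1, and Apc1322T replicate 1 was highest for Avil. Without ApcMin replicate 2, 6 of the 7 members and 34 of the 50 further genes still had a positive value, with medians of 0.59 and 0.26.

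**Figure D4:**
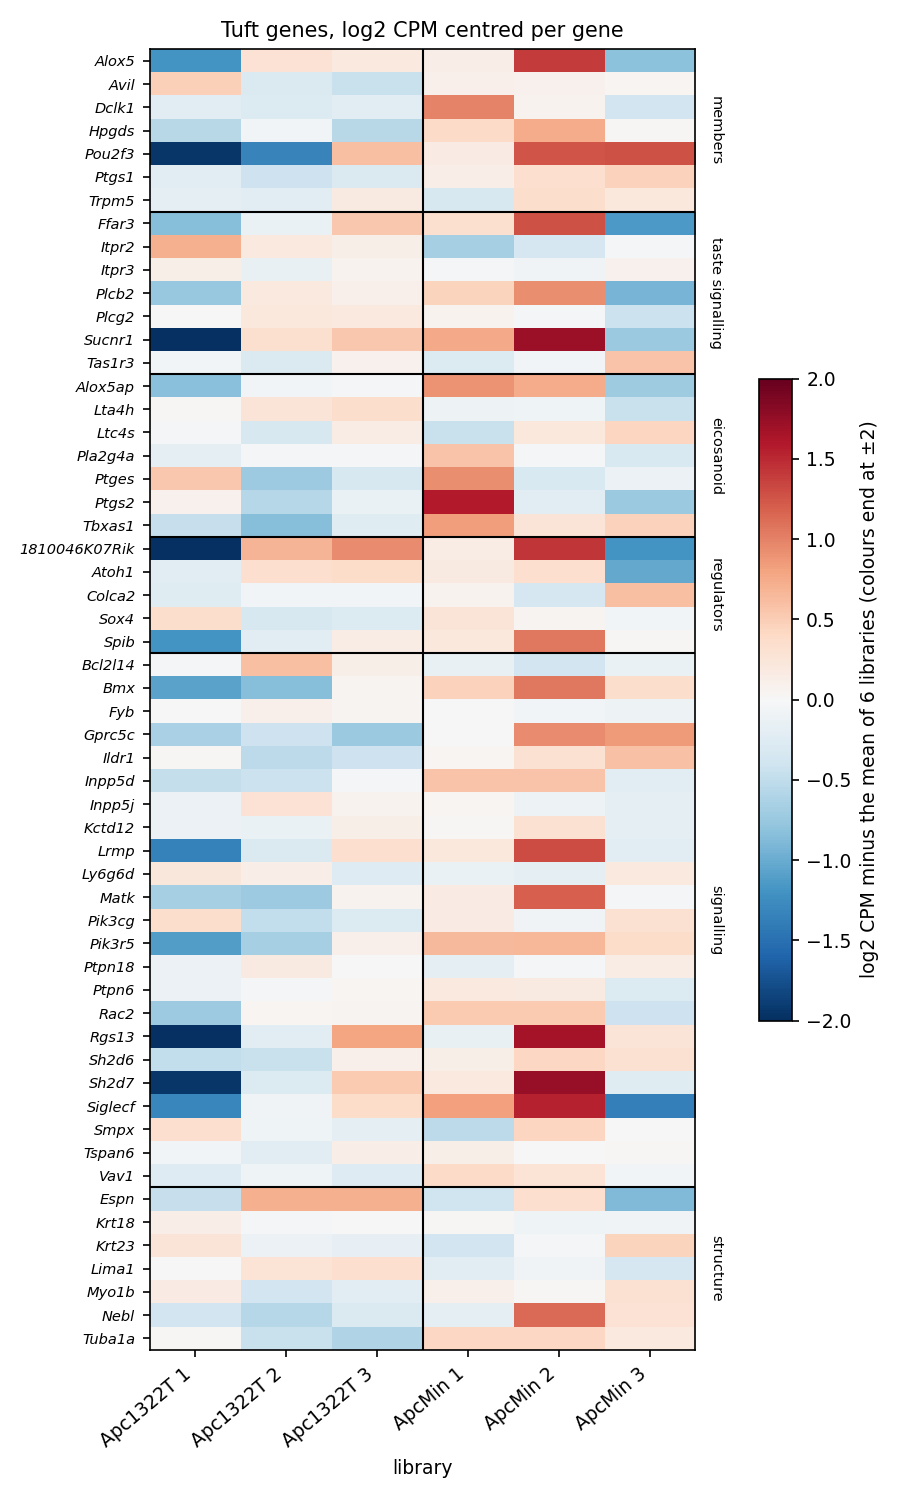
Log2 CPM of the 7 tested tuft cell genes and 49 of the 50 further tuft genes (rows, by sublist), each minus its mean over the 6 libraries (columns), from blue for low to red for high with colours ending at 2. ApcMin replicate 2 holds the highest value of 20 of the 49 further genes drawn, and ApcMin replicate 3 the lowest of 14.

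The spread of the members around their mean profile was similar in size to that of all genes. The mean of their centred log2 CPM was -0.54, -0.33 and -0.07 in Apc1322T replicates 1 to 3 and 0.23, 0.61 and 0.12 in ApcMin replicates 1 to 3. The root-mean-square difference of a member from this mean profile was 0.243 for Hpgds and 0.244 for Ptgs1, 0.314 for Trpm5, 0.458 for Dclk1, 0.495 for Avil, 0.632 for Alox5 and 0.928 for Pou2f3. The median was 0.458 for the members and 0.445 for all genes tested, although the members helped to make the profile. The non-member genes most like it over the 6 libraries included Csdc2, Zfp354a, Krba1 and Vmn1r43, with differences between 0.101 and 0.110. None of these was on the tuft list. Csdc2 and Vmn1r43 were at low levels, with a log2 CPM of at most 0.024 and -0.78, where the prior count narrows differences between libraries.

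Markers of other cell types were compared because several members are not exclusive to tuft cells. The 11 mast cell genes summed to between 184 and 965 CPM in Apc1322T and between 173 and 1327 CPM in ApcMin. The highest library exceeded the lowest 7.68-fold. They were lowest in ApcMin replicate 3 and Apc1322T replicate 1 and highest in ApcMin replicate 2, which are also the extremes of Alox5. The sum was mostly that of the protease genes Mcpt1 and Mcpt2, and while 9 of the 11 genes were highest in ApcMin replicate 2, Kit was highest in ApcMin replicate 3 and Hdc in ApcMin replicate 1. All 11 had a positive log2 fold change, from 0.0046 for Ms4a2 to 1.39 for Kit, and none was at 0 in every library. Ptgs1 departed from the mast cell order, as it was highest in ApcMin replicate 3 and lowest in Apc1322T replicate 2. In Apc1322T replicate 2 the mast cell genes summed to 965 CPM. Hpgds was highest in ApcMin replicate 2, but in ApcMin replicate 3 it was above all Apc1322T libraries. The part of mast cells in the values of Alox5, Hpgds and Ptgs1 was not tested.

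The 9 myeloid genes summed to between 76.3 and 121 CPM in Apc1322T and between 97.3 and 283 CPM in ApcMin, and all 9 had positive values, from 0.64 for Csf1r to 1.38 for S100a9. Fibroblast genes had positive values in 6 of 6, from 0.72 for Dcn to 1.57 for Lum, and smooth muscle genes in 6 of 6, from 0.48 for Des to 0.88 for Myh11. The summed smooth muscle level was between 127 and 255 CPM in Apc1322T and between 276 and 402 CPM in ApcMin, without overlap. Stromal and myeloid genes thus had positive values as the tuft cell genes did, and their part in the latter was not tested.

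Lists for other lineages, some of which use single members, gave values in both directions. The 8 megakaryocyte and platelet genes summed to between 23.5 and 42.6 CPM in Apc1322T and between 38.1 and 54.5 CPM in ApcMin, with positive values in all 5 tested, from 0.21 for Gp1ba to 0.90 for Pf4, and a median of 0.55. The 6 erythroid genes, from -0.09 for Hba-a1 to 0.33 for Alas2, summed to between 360 and 1063 CPM and between 479 and 983 CPM. The enteric neuron genes, from -0.12 for Ret to 1.09 for Tubb3, summed to between 32.3 and 39.3 CPM and between 32.3 and 41.3 CPM. The 3 eosinophil genes summed to between 0.660 and 1.14 CPM in Apc1322T and between 0.983 and 2.05 CPM in ApcMin, where Epx was counted in 1 library and Prg2, with 0.63, was the only 1 tested. Lymphoid genes ranged from -0.88 for Cd8a to 0.49 for Cd79a. No gene of these lists passed edgeR's threshold.

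The listed general epithelial genes went the other way. All 7 had a negative log2 fold change, from -0.81 for Krt20 to -0.25 for Krt19, and the Apc1322T libraries lay above the ApcMin libraries in 6 of them, an order found for 9.96% of all genes. Epcam, the epithelial adhesion gene, had -0.39 with an unadjusted p of 0.0155 and an adjusted p of 0.286 by edgeR's quasi-likelihood test. Their sum was between 12881 and 15618 CPM in Apc1322T and between 10334 and 12132 CPM in ApcMin. When each library was scaled to the mean log2 CPM of these epithelial genes, the median of the 7 tuft members moved to 1.03 and that of all genes to 0.45, so that the members' distance to all genes was 0.58. Krt18, a keratin placed in the structural tuft list, had -0.077 in the main fit, with overlapping libraries. The enteroendocrine genes, markers of another rare epithelial lineage, had a median of -0.12, with 3 of 8 positive, from -0.45 for Sct to 0.60 for Neurod1. Their sums were between 71.0 and 130 CPM in Apc1322T and between 81.8 and 103 CPM in ApcMin.

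**Figure D5:**
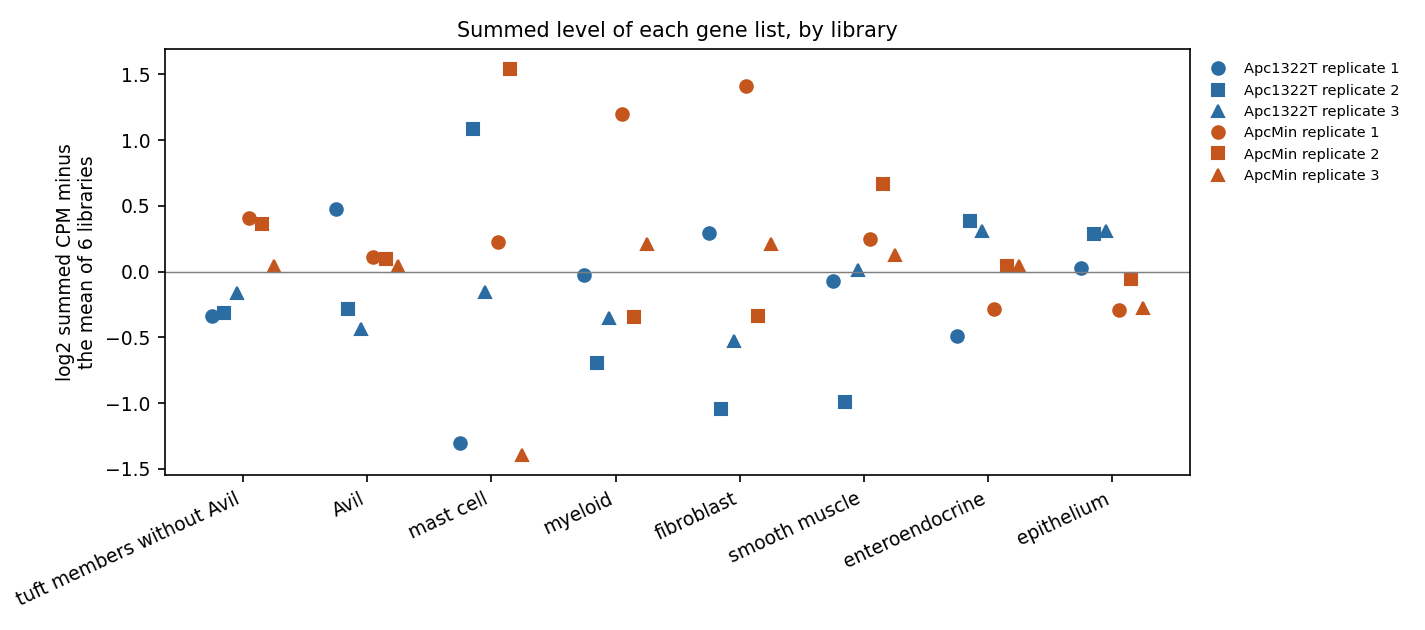
Summed CPM of each gene list on the log2 scale, minus the mean of the 6 libraries (vertical axis), for the 9 tuft members without Avil, for Avil and for lists of other cell types, with each library as a point, Apc1322T in blue and ApcMin in orange. The tuft members without Avil and the smooth muscle genes lie higher and the epithelium genes lower in all ApcMin libraries, and the mast cell genes spread over a 7.68-fold range. Avil was set apart after its values were seen, and the sums of all 10 members overlapped between genotypes.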

How the data were processed

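RNA-seq libraries of adenomas were analysed, with 3 libraries per genotype assigned by the sample labels. Per the methods, mRNA from 1 μg of total RNA was made into libraries with a strand-preserving kit and sequenced as 50 base reads. The authors quantified the reads with Salmon on the GRCm38.p6 transcriptome and deposited estimated counts per gene, not scaled for library size or length. The transcript annotation release is not given in the sources used here. Reads shared by several transcripts are apportioned by Salmon, and 31.1% of the values are not whole (tolerance 0.001).

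The estimated counts were rounded, and GENCODE M21 gave a symbol for the Ensembl identifiers of 34582 among 34866 genes. Genes were kept by filterByExpr (minimum count 10, minimum total count 15), normalised by TMM and tested with edgeR 4.0.16 in R 4.3.3 (robust quasi-likelihood, Benjamini-Hochberg, threshold 0.01). Standard errors were derived from the F statistic. DESeq2 1.42.0, limma 3.58.1 (voom), DESeq2's size factors, no filter, an adjusted p under 0.05, a scale relative to epithelial genes, leaving out each library and the replicate number as a block were the alternatives. The procedure was tested on simulated counts, with planted changes larger than the values of most members and only in genes above the median level. That run does not show whether smaller changes, or changes in genes of low level, would be called. Union exon lengths were from GENCODE M21. Columns of other samples in the table numbered 0.

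The members, lists and tests were chosen with earlier results of these data known. Lists of further tuft, type 2 circuit, mast cell, megakaryocyte and platelet, erythroid, myeloid, eosinophil, lymphoid, fibroblast, enteric neuron, smooth muscle, epithelium and enteroendocrine genes were written from general knowledge. The named genes were all members, a set list of partner genes, the tested genes of each other list with the highest and lowest log2 fold change or an adjusted p under 0.01, and the 5 genes nearest to the members' mean profile. Krt14, Krt6a, Krt5, Trp63, Dsg3, Sprr1a, Lipf, Tff1, Mcpt1, Mcpt2, Hdc, Bmx, Pik3r5, Krt18 and Epx were named after their values were seen. Some genes that this rule names are not reported here, in the figures either. One listed gene was found under its newer symbol Colca2.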

Additional observations from a re-analysis of the deposited data

How the results depend on the processing

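No call of a tuft member by edgeR's quasi-likelihood test at an adjusted p under 0.01 was made under any of the alternatives. The same held for the further tuft genes, whose calls on the scale relative to epithelial genes are not given here. DESeq2's Wald test called 194 genes in all, 1 member (Ptgs1, log2 fold change 0.61) and 1 further tuft gene. Over all genes, 1 was called without the filter on low counts, 1 at an adjusted p under 0.05, and between 0 and 1 when a library was left out. The members' median was 1.03 relative to the epithelial genes and between 0.58 and 0.83 when a library was left out. The count of members at an unadjusted p under 0.05, an alternative added after the data were seen, was between 1 and 3 when a library was left out, and 1 (Ptgs1) without ApcMin replicate 1 or 2. The direction turned for Alox5 without ApcMin replicate 2 (-0.17) and for Avil without Apc1322T replicate 2 (-0.012) and 3 (-0.068), and when any library was left out Alox5 reached up to 1.00 and Avil up to 0.45. The 80 other gene values under alternatives kept their direction and their side of the threshold. The deviations of same-numbered libraries from their genotype means correlated at -0.014, 0.16 and -0.29 for replicates 1 to 3, so that the numbers do not pair the libraries, and not every library correlated best with its own number. With the replicate number as a block, 0 genes were called, the members' median was 0.51, and 3 members (Hpgds, Pou2f3 and Ptgs1) had an unadjusted p under 0.05. Depth limits Il25, Gfi1b and Gnat3, which stayed near the floor of 3 counts, and for the other members the spread between 3 libraries sets the precision.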
